A study of Mus musculus with 6 samples.

Results

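The ligands and receptors of the tumour necrosis factor (TNF) superfamilies were examined in whole lung of Scnn1b-transgenic (Scnn1b-Tg) and wild-type mice. These families were picked with earlier results of these data known. Within them, every gene with a symbol starting with Tnfsf (ligands) or Tnfrsf (receptors) was taken. Tnf, Lta, Ltb, Ltbr, Fas, Fasl, Cd27, Cd40, Cd40lg and Cd70 were added by symbol. This gave 39 genes, 15 ligands and 24 receptors, of the 19935 genes with a probe set of their own on the array. Both groups were of the C57BL/6 background and each held 3 arrays of total lung RNA, 1 per sample. The transgenic mice carry extra Scnn1b, a gene of the sodium channel of airway surfaces, and the stated aim of the study was to find candidate genes for emphysema. In the published line the transgene is driven by a club cell promoter in airway epithelium, as background; the labels used here state neither the promoter nor the age or sex of these mice. The labels do not say whether the samples of a group are separate animals, and p-values therefore cover only the spread among these samples, which may be technical.

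TNF superfamily ligands are mostly membrane proteins that act as trimers, on the cell surface or after being shed. Their receptors carry cysteine-rich repeats outside the cell, and inside it either a death domain, which can start apoptosis, or short motifs that bind TRAF adaptors and activate NF-κB. In lung they take part in inflammation, in the costimulation and survival of lymphocytes and in the death of epithelial cells.

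The intensities are RMA values on a linear scale, and array medians lay between 47.6 and 48.5. The lowest value of an array was 18.3 to 18.6, so a member near 20 is close to the bottom of the scale. Precision is limited by the small number of arrays. As a check of the labels, Scnn1b read 139.7 ± 31.9 (SD, n = 3) on wild-type arrays and 1422 ± 98.3 on transgenic arrays. On the first principal component wild type replicate 2 stood apart (16.3, the others -8.91 to 5.46), and on the second Scnn1b-Tg replicate 3 (13.3, the others -8.03 to 2.47). Lung genes were well above the bottom of the scale: the surfactant gene Sftpc, Ager of type 1 alveolar cells, Scgb1a1 of club cells, Pecam1 of endothelium and Foxj1 of ciliated cells summed to 15171 to 16138 on wild-type arrays and 14223 to 15428 on transgenic arrays.

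The largest difference among the members was that of Tnfrsf1b, the TNF receptor 2 of leukocytes and endothelium, which had a higher mean in Scnn1b-Tg lung by 0.33 ± 0.059 (SE) on the log2 scale, or 1.26-fold, and did not pass the test. Next among the receptors stood Tnfrsf9, the costimulatory receptor CD137 of activated T and NK cells, at 0.20 ± 0.053. The remaining 37 members, Tnf among them, had log2 fold changes between -0.080 and 0.22. In limma's test, with Benjamini-Hochberg adjustment over all genes, 0 of 39 members were called at an adjusted p under 0.05, where the share over all genes was 0.00502% (only Scnn1b). At an unadjusted p under 0.05 there were 2 members (5.13%), Tnfrsf1b and Tnfrsf9, beside 6.01% of all genes. Both were higher, beside 3.96% of all genes in that direction, and 0 were lower, beside 2.05%. The 3 transgenic arrays lay wholly above the 3 wild-type arrays for 3 members (Tnfrsf1b, Tnfrsf9 and Cd40), beside 6.26% of all genes, and wholly below for 1 (Tnfsf8), beside 4.41%. That is 4 of 39 members (10.3%) against 10.7% of all genes. Both shares of members were thus close to the background.

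**Figure D1:**
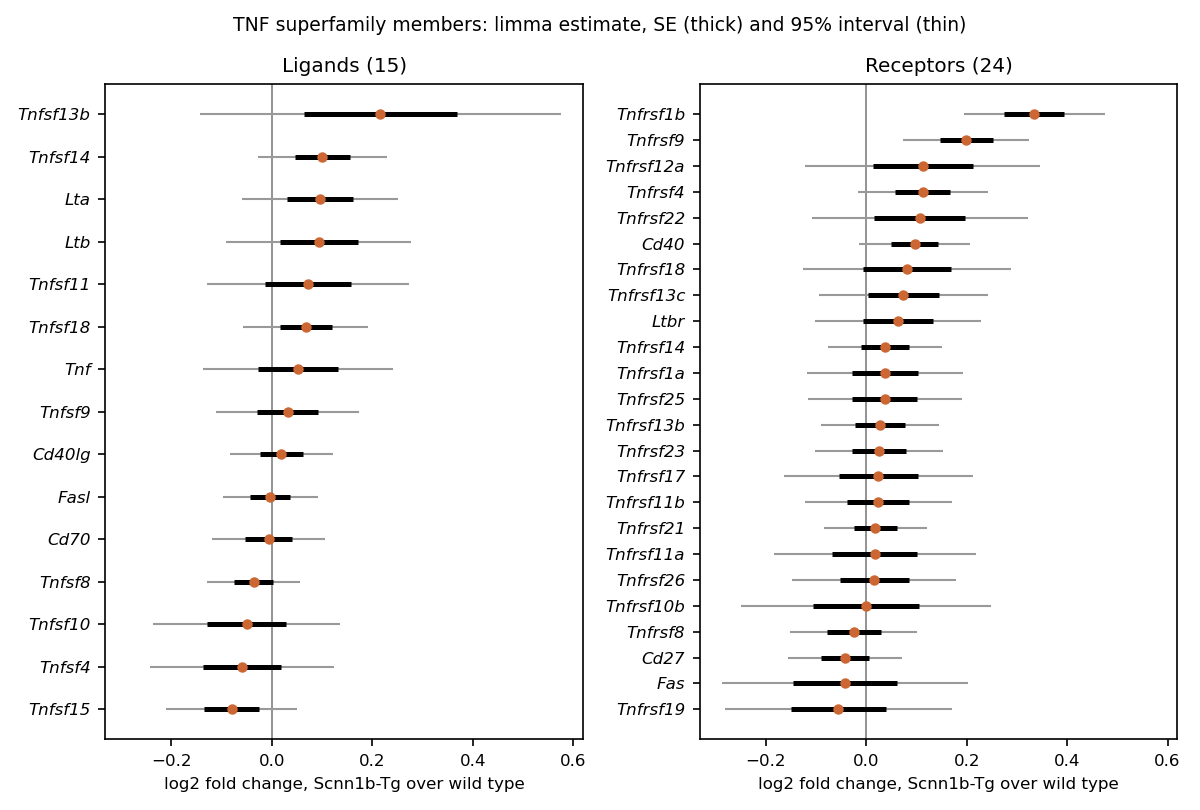
Log2 fold change of Scnn1b-Tg over wild type for the 15 ligands (left) and 24 receptors (right), from limma on 3 arrays a group; points are estimates, thick lines the SE and thin lines the 95% interval. Intervals that leave out 0 belong to Tnfrsf1b (0.19 to 0.47) and Tnfrsf9 (0.074 to 0.32), and the widest is that of Tnfsf13b (-0.14 to 0.58).

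Small values of either sign made up most of the families. Of 39 members 29 (74.4%) had a value above 0, beside 53.2% of all genes. After quantile normalization the count was 24 (61.5%), beside 47.2% of all genes, and after median centring 21 (53.8%), beside 38.6%. The median log2 fold change was 0.032 over the ligands and 0.032 over the receptors, against 0.0052 over all genes. For 38 of the 39 members the 95% interval lay within -0.5 and 0.5 on the log2 scale of the deposited values, the exception being Tnfsf13b. The same held for 19354 of all 19935 genes. Intensity also depends on the probe set and is no measure of RNA between genes. Of the 39, 24 had a mean below the median of all genes and 7 were above 100. A mean intensity under 25 was found for 5 of 39 members, beside 3215 of all 19935 genes. All 5 of the dimmest were ligands (Cd40lg, Tnfsf4, Tnfsf8, Cd70 and Tnfsf18). Whether a constant was added to the values before deposit is unknown, and one would shrink the log2 fold changes of such dim genes.

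TNF itself, the founding ligand and a product mainly of macrophages, gave a low signal in these lungs. Tnf had intensities of 31.1, 29.3 and 32.4 on the wild-type arrays and of 30.8, 35.9 and 29.8 on the transgenic arrays. The groups overlapped, with the highest value on Scnn1b-Tg replicate 2 and wild type replicate 2 the lowest. Its log2 fold change was 0.052 ± 0.080 (SE), with a 95% interval of -0.14 to 0.24 and an adjusted p of 0.987 in limma, and without Scnn1b-Tg replicate 2 it was -0.029.

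Of the receptors of TNF, Tnfrsf1b, which has no death domain and responds best to membrane-bound TNF, read 78.9, 73.5 and 77.1 in wild type and 92.8, 93.3 and 104 in Scnn1b-Tg. All 3 transgenic arrays were higher than every wild-type array, with replicate 3 the highest. The group means were 76.5 ± 2.71 (SD, n = 3) and 96.5 ± 6.11 (SD, n = 3), and limma gave an unadjusted p of 0.000783 and an adjusted p of 0.225, the 65th smallest p among the 10597 genes with a value above 0. Over single arrays left out the log2 fold change ran from 0.28 to 0.36, and without both arrays that stood apart it was 0.25 (limma adjusted p = 0.407). Over all 16 alternatives its limma adjusted p ran from 0.140 to 0.673.

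Tnfrsf1a, the broadly expressed TNF receptor with a death domain, read 283, 247 and 280.3 in wild type and 288, 271 and 271 in Scnn1b-Tg. These ranges overlapped, wild type replicate 2 being the lowest array. The log2 fold change was 0.037 ± 0.065 (SE) with a 95% interval of -0.12 to 0.19 and an adjusted p of 0.989 in limma; without wild type replicate 2 it was -0.026. Within each array the log2 difference of Tnfrsf1b minus Tnfrsf1a was -1.84, -1.75 and -1.86 in wild type and -1.64, -1.54 and -1.39 in Scnn1b-Tg. It was greater on every transgenic array than on every wild-type array, by a mean of 0.30. The two-sided exact permutation p was 0.1, the smallest that 3 against 3 arrays can give. The pair was not among the comparisons planned beforehand. As Tnfrsf1a changed by 0.037, the 0.30 mostly restates the 0.33 of Tnfrsf1b and is no separate evidence.

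Markers of macrophages, which carry Tnfrsf1b, had values in the same direction, and 0 were called. The marker and pathway lists, here and below, were chosen with earlier results of these data known. Their counts are therefore descriptive and no independent evidence. Of 8 macrophage markers 8 had values above 0 (7 after median centring, and 7 without both arrays that stood apart). An unadjusted p under 0.05 was found for 6, beside 3.96% of all genes in that direction. Groups did not overlap for 6, beside 6.26% of all genes with transgenic arrays above. The summed intensity of the 8 markers was 902 to 932 on wild-type arrays and 1118 to 1201 on transgenic arrays. By p the list was led by Cd68, a lysosomal protein of macrophages, at 0.33 ± 0.044 (SE), and Itgax, the CD11c integrin, at 0.53 ± 0.079, with adjusted p-values of 0.139 and 0.151 in limma. Marco (0.012 ± 0.12) and Mertk (0.040 ± 0.069) were close to 0, with groups that overlapped. The dimmest marker had a mean intensity of 52.0. Of 5 eosinophil markers, too, 5 had values above 0, and 0 were called. Of these, 4 were higher at an unadjusted p under 0.05, beside 3.96% of all genes in that direction. Transgenic arrays lay wholly above for 4, beside 6.26% of all genes. Summed intensities were 204 to 213 and 252 to 430.1, led by the chemokine receptor Ccr3 (1.40 ± 0.32) and Siglecf (0.39 ± 0.092). Without Ccr3 the sums were 157 to 162 and 178 to 231. Markers of endothelium, where Tnfrsf1b is also found, gave 0 of 5 above 0 (2 without wild type replicate 3 or without Scnn1b-Tg replicate 1) and summed to 4782 to 4901 and 4361 to 4838, led by p by Tek (-0.10 ± 0.052) and Kdr (-0.12 ± 0.061). The part of these cells in the Tnfrsf1b value was not tested, and in whole tissue more cells of a type cannot be told apart from more RNA per cell.

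**Figure D2:**
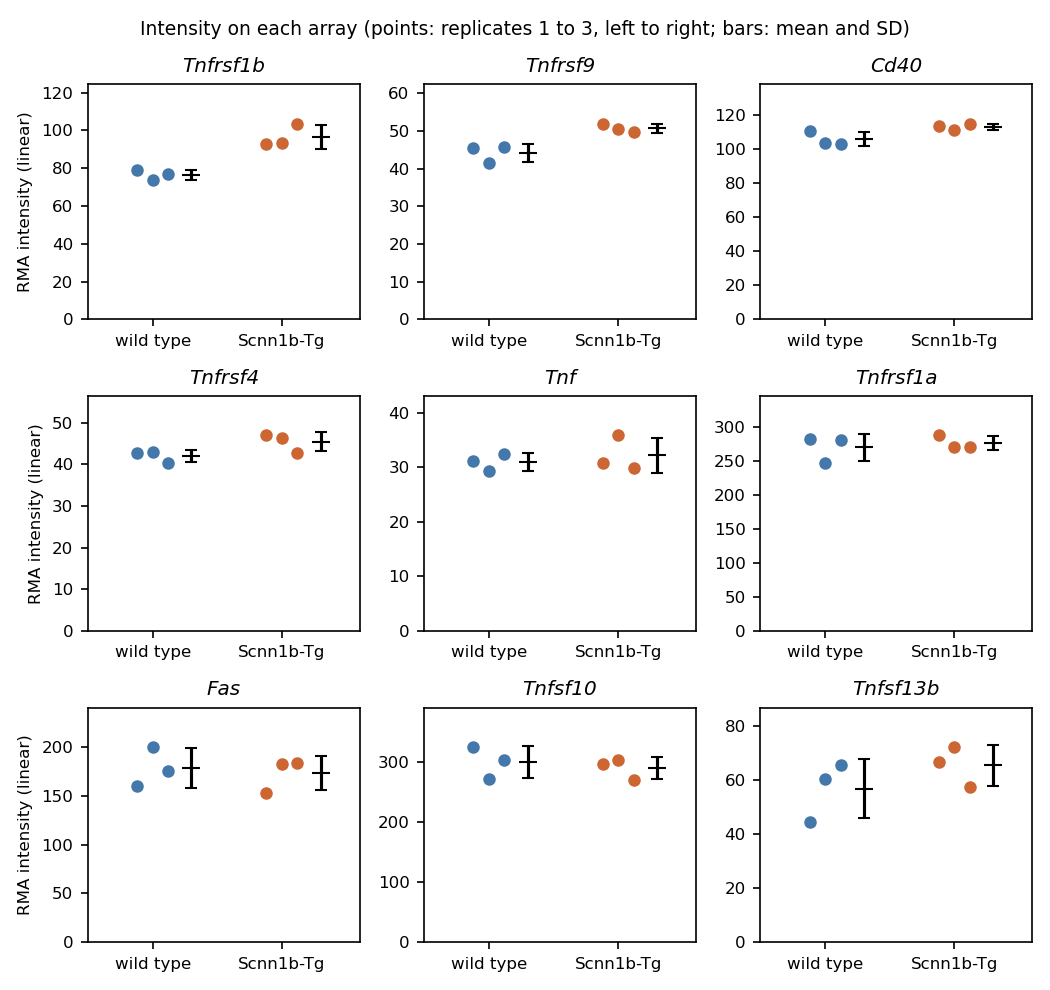
RMA intensity (linear scale, from 0) of 9 members on each of the 6 arrays; points are replicates 1 to 3 from left to right, bars the mean and SD of 3 arrays. For Tnfrsf1b the transgenic arrays sit between 92.8 and 104, above the wild-type arrays, while Tnf, Tnfrsf1a, Fas, Tnfsf10 and Tnfsf13b overlap between genotypes.

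Upstream sequences are shown for Tnfrsf1b and Tnfrsf9, the members at an unadjusted p under 0.05. RefSeq (GRCm38.p6) gave 34 start site windows for 30 of the 39 members, each from 250 bases before to 50 after a start. They were searched on both strands for a form of the κB site bound by NF-κB (GGG, any 2 bases, TT, any base, CC) and for the TATA box TATAAA. The first sequence is the 250 bases before the start of Tnfrsf1b (chr4:145246871-145247120, minus strand), the next those before the upstream start of Tnfrsf9 (chr4:150919905-150920154, plus strand) and the last those before its downstream start (chr4:150927749-150927998, plus strand). They run 5′ to 3′ in lower case, and capitals mark letters of a κB match.
Tnfrsf1b: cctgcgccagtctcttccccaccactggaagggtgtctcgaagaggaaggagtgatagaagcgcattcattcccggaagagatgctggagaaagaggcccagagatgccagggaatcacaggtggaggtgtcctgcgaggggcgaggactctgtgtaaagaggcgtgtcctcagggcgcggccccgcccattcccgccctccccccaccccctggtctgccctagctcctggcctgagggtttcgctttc
Tnfrsf9 upstream start: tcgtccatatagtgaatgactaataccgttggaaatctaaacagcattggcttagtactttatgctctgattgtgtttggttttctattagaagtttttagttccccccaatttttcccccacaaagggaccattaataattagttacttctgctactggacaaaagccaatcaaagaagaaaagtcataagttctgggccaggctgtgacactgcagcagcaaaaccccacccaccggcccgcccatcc
Tnfrsf9 downstream start: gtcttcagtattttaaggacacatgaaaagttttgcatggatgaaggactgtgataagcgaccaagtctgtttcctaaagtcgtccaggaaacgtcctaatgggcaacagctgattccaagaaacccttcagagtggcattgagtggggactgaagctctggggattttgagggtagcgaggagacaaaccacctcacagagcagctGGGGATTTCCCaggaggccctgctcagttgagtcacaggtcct

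Of the stretches shown, the downstream one of Tnfrsf9 held κB matches, 2 that overlap each other and span 43 to 33 bases before the start. G and C made up 62.8% of the Tnfrsf1b stretch and 43.2% and 49.6% of those of Tnfrsf9. Over the members 4 of 34 windows (11.8%) held the κB letters, those of Tnfrsf9, Ltb, Tnfrsf13b and Tnfrsf25, against 4.79% of all 32851 windows. TATAAA was in 6 windows (17.6%), of Tnf, Lta, Tnfsf11, Tnfsf18, Tnfrsf17 and Tnfrsf23, against 13.6% of all. The 4 genes with κB letters had log2 fold changes of 0.20, 0.093, 0.028 and 0.037 in the order given. A match is a description of these letters and no measure of binding.

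Death domain receptors and the ligands Fasl and Tnfsf10 had values close to 0. Fas, the receptor of Fas ligand, read 159.6, 200.0 and 175 in wild type and 153, 183 and 183 in Scnn1b-Tg, with overlapping groups and a log2 fold change of -0.043 ± 0.10 (SE; 95% interval -0.29 to 0.20). Without wild type replicate 2 it was 0.043. Fasl, mainly of cytotoxic lymphocytes, was dim. It read 27.0 ± 0.452 (SD, n = 3) on wild-type arrays and 26.9 ± 0.201 on transgenic arrays, with a log2 fold change of -0.0034 ± 0.040. Tnfsf10 (TRAIL), a ligand that can kill tumour cells, read 325, 272 and 303 in wild type and 296, 303 and 269 in Scnn1b-Tg. Its groups overlapped, and the log2 fold change of -0.050 ± 0.079 had a 95% interval of -0.24 to 0.14. Its signalling receptor in mouse, Tnfrsf10b, read 47.5, 54.5 and 48.7 in wild type and 46.5, 46.1 and 58.7 in Scnn1b-Tg. Those groups overlapped too, and both the lowest values and the highest were on transgenic arrays: without Scnn1b-Tg replicate 3 the log2 fold change was -0.11, against 6.8e-05 with all arrays. The mouse decoy receptors of TRAIL, Tnfrsf22 and Tnfrsf23, gave 0.11 ± 0.091 and 0.025 ± 0.054. Tnfrsf22 read 45.2, 44.3 and 55.8 in Scnn1b-Tg, high on replicate 3 alone, and without that array its log2 fold change was 0.00024. Over the 5 death domain receptors (Tnfrsf1a, Fas, Tnfrsf10b, Tnfrsf21 and Tnfrsf25) log2 fold changes ran from -0.043 to 0.037, and 0 had an unadjusted p under 0.05.

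Genes of lymphocyte costimulation held Tnfrsf9 and Cd40. Tnfrsf9 read 45.4, 41.5 and 45.7 in wild type and 51.9, 50.4 and 49.7 in Scnn1b-Tg, so that all transgenic arrays were above all wild-type arrays. The unadjusted p was 0.00712 and the adjusted p 0.555 in limma, and over single arrays left out its log2 fold change ran from 0.15 to 0.22. Over all 16 alternatives the adjusted p ran from 0.381 to 0.988. Its ligand Tnfsf9 was dim, at 25.7 ± 1.15 (SD, n = 3) on wild-type arrays and 26.3 ± 1.55 on transgenic arrays, and gave a log2 fold change of 0.032 ± 0.060 (SE).

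Cd40, a receptor of B cells, dendritic cells and macrophages that receives help from T cells, read 111, 104 and 103 in wild type and 113, 111 and 115 in Scnn1b-Tg. The groups did not overlap but came within 1 unit of intensity of each other, between wild type replicate 1 and Scnn1b-Tg replicate 2. Its log2 fold change was 0.096 ± 0.047 (SE; limma adjusted p = 0.867). Cd40lg, its ligand on activated T cells, lay at the bottom of the scale at 20.4 ± 0.636 (SD, n = 3) on wild-type arrays and 20.6 ± 0.158 on transgenic arrays.

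Tnfrsf4 (OX40), a receptor of activated T cells, read 42.6, 43.0 and 40.3 in wild type and 47.0, 46.3 and 42.8 in Scnn1b-Tg. Scnn1b-Tg replicate 3 fell among the wild-type arrays, and the log2 fold change was 0.11 ± 0.055 (SE; adjusted p = 0.867 in limma). Its ligand Tnfsf4 gave -0.060 ± 0.078. Tnfsf15, the ligand of Tnfrsf25, was the lowest of all members by fold, with 43.2, 48.4 and 44.3 in wild type and 43.5, 43.0 and 41.9 in Scnn1b-Tg. Those groups overlapped at wild type replicate 1, and its log2 fold change was -0.080 ± 0.055 (adjusted p = 0.916 in limma). Tnfsf8, ligand of the CD30 receptor Tnfrsf8, was the 1 member with transgenic arrays wholly below, at 22.8, 22.9 and 22.8 against 23.2, 23.7 and 23.3 in wild type. That gap was under 1 unit of intensity near the bottom of the scale, with a log2 fold change of -0.037 ± 0.039 and an adjusted p of 0.969 in limma.

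Others of this role gave log2 fold changes of 0.081 for Tnfrsf18 (GITR), 0.068 for its ligand Tnfsf18, -0.025 for Tnfrsf8, -0.042 for Cd27 and -0.0066 for its ligand Cd70, all with groups that overlapped. Of the 16 costimulation genes measured 10 had values above 0, beside 53.2% of all genes. An unadjusted p under 0.05 was found for 1, Tnfrsf9, beside 6.01% of all genes. The median log2 fold change was 0.034. That median was 0.017 after quantile normalization, 0.0088 after median centring, and 0.019 and 0.013 without wild type replicate 3 and without Scnn1b-Tg replicate 1. Of 7 measured T cell markers 3 had values above 0, and they summed to 337 to 359 in wild type and 339 to 375 in Scnn1b-Tg, led by p by Cd3g (0.16 ± 0.062) and Cd3d (0.13 ± 0.081). For NK cells it was 2 of 5, with sums of 125 to 128 and 124 to 125, Gzma at -0.075 ± 0.051 and Eomes at -0.038 ± 0.038; 4 of these 5 had a mean intensity under 25. Dendritic cell markers had 5 of 6 above 0, with sums that overlapped (293 to 319 and 299 to 391), Flt3 at 0.21 ± 0.092 and Cd209a at 0.58 ± 0.27. The part of these cells in the Tnfrsf9 and Cd40 values was not tested.

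**Figure D3:**
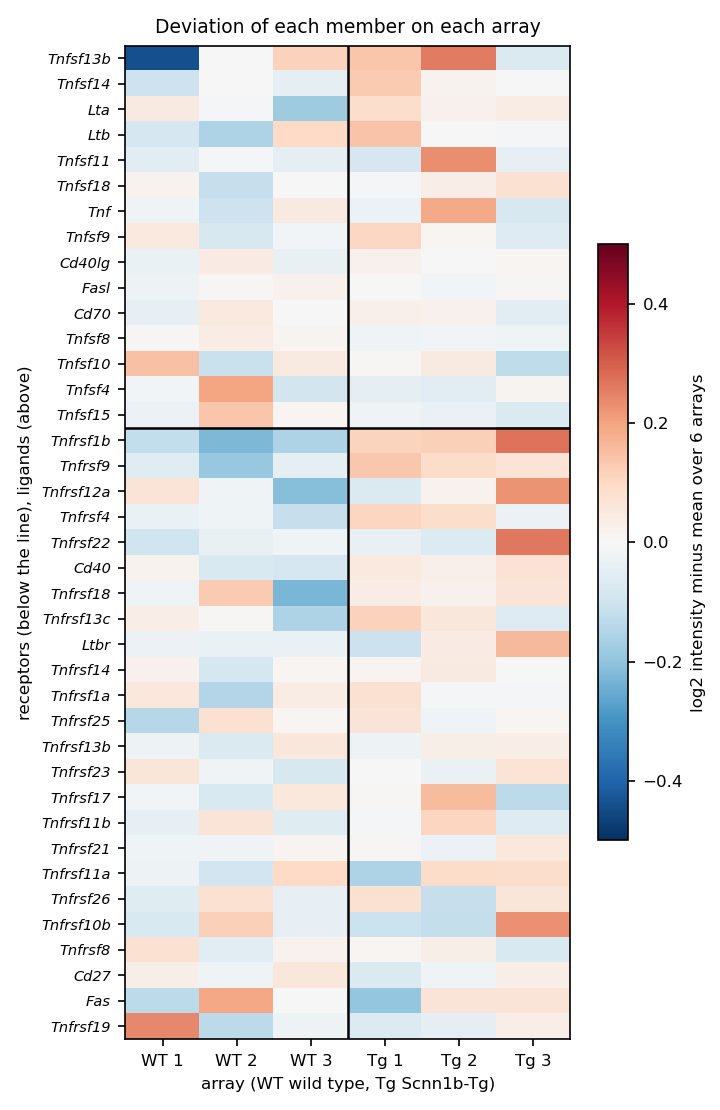
Log2 intensity of each member on each array minus its mean over the 6 arrays, ligands above the horizontal line and receptors below, ordered within each by log2 fold change; red is above the mean and blue below. Tnfrsf1b and Tnfrsf9 are blue on all wild-type arrays and red on all transgenic arrays, while Tnfsf13b is low on wild type replicate 1 and Tnfrsf22 and Tnfrsf10b are high on Scnn1b-Tg replicate 3.

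The lymphotoxin genes, which drive the formation of lymphoid tissue, had small values above 0, and 0 of them were called; that of Ltbr was -0.0017 without both arrays that stood apart. Lta read 28.5, 27.4 and 24.4 in wild type and 29.3, 28.0 and 28.3 in Scnn1b-Tg, overlapping at wild type replicate 1, with a log2 fold change of 0.096 ± 0.065 (SE; limma adjusted p = 0.916) that was 0.031 without wild type replicate 3. Ltb, which anchors Lta to the membrane, read 55.7, 53.0 and 63.2 in wild type and 65.1, 59.2 and 58.8 in Scnn1b-Tg, also overlapping, with a log2 fold change of 0.093 ± 0.078, which was 0.038 when wild type replicate 2 was left out and 0.17 when replicate 3 of that group was. Ltbr, their receptor on stromal and myeloid cells, was nearly level in wild type at 115, 114 and 114 and spread from 109 to 131 in Scnn1b-Tg, which put the transgenic arrays on both sides of the wild-type ones (0.063 ± 0.070). Tnfsf14 (LIGHT), a further ligand of Ltbr and of Tnfrsf14, had the smallest p of all ligands. It read 28.4, 30.6 and 29.5 in wild type and 33.4, 30.9 and 30.6 in Scnn1b-Tg, with Scnn1b-Tg replicate 3 within the wild-type range, and gave 0.10 ± 0.054 (SE; limma adjusted p = 0.892), or 0.060 without Scnn1b-Tg replicate 1. Tnfrsf14 gave 0.038 ± 0.048.

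Among genes of B cell and plasma cell survival Tnfsf13b (BAFF), made by myeloid and stromal cells, had the largest log2 fold change of all ligands and the widest interval. It read 44.7, 60.5 and 65.6 in wild type and 66.7, 72.5 and 57.6 in Scnn1b-Tg. Wild type replicate 1 was far below the others, and Scnn1b-Tg replicate 3 fell below the remaining wild-type arrays. The log2 fold change was 0.22 ± 0.15 (SE), with a limma adjusted p of 0.921, and without wild type replicate 1 it was 0.051. Its receptors gave 0.074 ± 0.071 for Tnfrsf13c (the BAFF receptor of B cells), 0.028 ± 0.050 for Tnfrsf13b (TACI) and 0.024 ± 0.079 for Tnfrsf17 (BCMA of plasma cells), each with overlapping groups. B cell markers had 5 of 6 measured above 0 (3 without wild type replicate 2 or without Scnn1b-Tg replicate 1) and summed to 321 to 480.0 and 394 to 503, overlapping ranges, with Cd79b at 0.18 ± 0.15 and Cd79a at 0.18 ± 0.19.

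The remaining members act in bone, in tissue repair or in roles less well known. Tnfsf11 (RANKL), the ligand that drives osteoclasts, read 70.7, 73.3 and 71.1 in wild type and 69.3, 86.3 and 71.4 in Scnn1b-Tg, high on Scnn1b-Tg replicate 2 alone, and gave 0.072 ± 0.085 (SE); without that array it was -0.027. Its receptor Tnfrsf11a and its decoy Tnfrsf11b, osteoprotegerin, gave 0.017 ± 0.085 and 0.024 ± 0.062. Tnfrsf12a (Fn14), the receptor of the TWEAK ligand, read 93.9, 88.7 and 77.5 in wild type and 85.5, 90.9 and 105 in Scnn1b-Tg, overlapping groups with a log2 fold change of 0.11 ± 0.099; it was 0.028 without Scnn1b-Tg replicate 3 and 0.034 without wild type replicate 3. Tnfrsf19 (TROY), Tnfrsf21 (death receptor 6), Tnfrsf25 (death receptor 3) and Tnfrsf26 gave -0.056 ± 0.095, 0.018 ± 0.043, 0.037 ± 0.065 and 0.015 ± 0.069. For Tnfrsf21 the SD was 1.80 in wild type on a mean of 143, and its 95% interval of -0.084 to 0.12 was among the narrower ones.

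Many of these genes lie side by side in the RefSeq annotation. With at most 2 protein-coding genes between, 21 of the 39 members formed 13 neighbouring pairs. Tnfrsf1b is next to Tnfrsf8, whose log2 fold change was -0.025 against 0.33. Ltb, Tnf and Lta are consecutive, with 0.093, 0.052 and 0.096, and so are Tnfsf9, Cd70 and Tnfsf14, with 0.032, -0.0066 and 0.10. Tnfsf4, Tnfsf18 and Fasl (-0.060, 0.068 and -0.0034) follow each other, as do Tnfrsf26, Tnfrsf22 and Tnfrsf23 (0.015, 0.11 and 0.025).

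**Figure D4:**
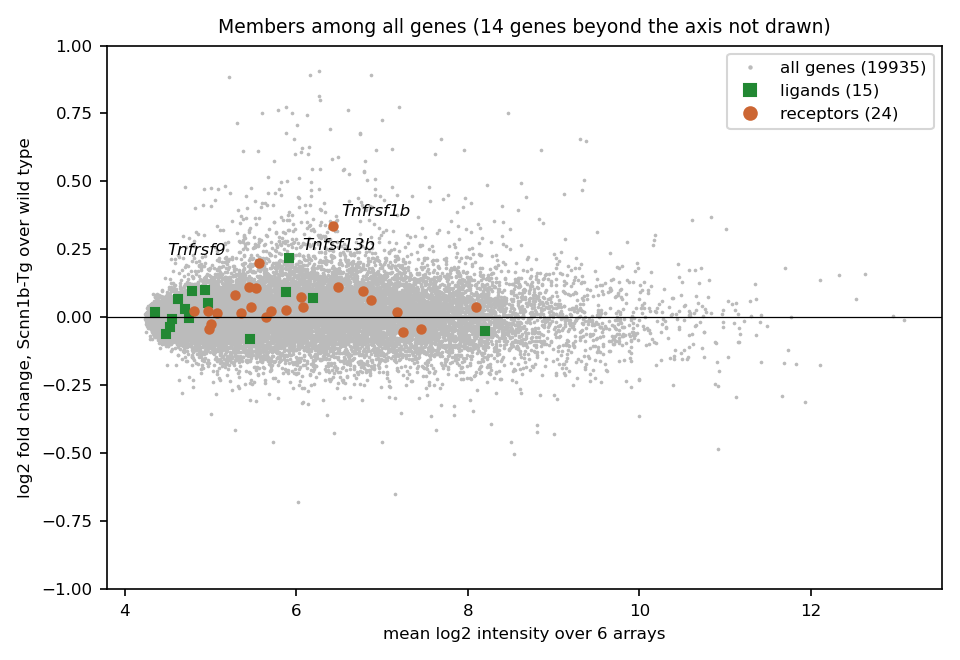
Log2 fold change of Scnn1b-Tg over wild type against mean log2 intensity over the 6 arrays, for all 19935 genes (grey), the 15 ligands (green squares) and the 24 receptors (orange circles); 14 genes with values beyond 1 are not drawn. Tnfrsf1b, at 0.33, is the highest of the members, and 24 members lie below the median intensity of all genes.

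Downstream of the receptors, adaptors and proximal signalling genes had 16 of 28 measured members above 0, beside 53.2% of all genes. After quantile normalization and after median centring the count was 13, beside 47.2% and 38.6% of all genes. Of the 28 members 3 higher and 1 lower had an unadjusted p under 0.05, beside 3.96% and 2.05% of all genes, and 0 were called. The median was 0.019, and -0.0060 after median centring. The smallest p was that of Tnip1, a ubiquitin-binding partner of A20 that restrains NF-κB, with 61.1, 60.0 and 64.1 in wild type and 71.8, 79.1 and 73.2 in Scnn1b-Tg. The groups did not overlap, and its log2 fold change was 0.27 ± 0.054 (SE; limma adjusted p = 0.296). Tank, a TRAF-binding adaptor, gave 0.14 ± 0.041 (adjusted p = 0.649 in limma). Cflar, which encodes cFLIP, the inhibitor of caspase 8 at death receptors, was lower on every transgenic array. It read 276, 305 and 288 in wild type and 248, 272 and 230.2 in Scnn1b-Tg. Its log2 fold change was -0.22 ± 0.072 (adjusted p = 0.750 in limma), and -0.12 without both arrays that stood apart.

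In the NF-κB and MAP kinase relay 18 of 22 measured genes had values above 0, beside 53.2% of all genes. The count was 15 after quantile normalization and after median centring, beside 47.2% and 38.6% of all genes. Without Scnn1b-Tg replicate 3 it was 13, beside 51.7%. In the main fit 3 higher and 0 lower had an unadjusted p under 0.05, beside 3.96% and 2.05% of all genes. After either scaling they were 2 higher and 1 lower. For such alternatives, in this list and the next ones, the share of all genes at that p is not given. The median of 0.060 was 0.035 after median centring, 0.12 without Scnn1b-Tg replicate 1 and 0.0072 without Scnn1b-Tg replicate 3, and without the last array 4 genes were higher and 2 lower at an unadjusted p under 0.05. By p the list was led by Nfkb2, the p100 precursor of the non-canonical pathway, at 105, 107 and 113 in wild type and 127, 122 and 140.2 in Scnn1b-Tg, with groups that did not overlap. Its log2 fold change was 0.26 ± 0.063 (SE; limma adjusted p = 0.477). Rel, the c-Rel subunit of leukocytes, gave 0.24 ± 0.061 and Nfkbiz 0.20 ± 0.077, with adjusted p-values of 0.492 and 0.787 in limma. Among NF-κB target genes 18 of 24 had values above 0 (median 0.056), beside 53.2% of all genes. After quantile normalization the count was 16, beside 47.2% of all genes, and after median centring 15, beside 38.6%. At an unadjusted p under 0.05 stood 5 higher and 0 lower, beside 3.96% and 2.05% of all genes, and 0 were called. Without Scnn1b-Tg replicate 1 the 5 were 8, without wild type replicate 1 or replicate 3 they were 3, and without Scnn1b-Tg replicate 2 the median was 0.034. Mmp9, gelatinase B, gave 0.30 ± 0.081, Lcn2, the iron-binding lipocalin of neutrophils and epithelium, 0.65 ± 0.18 and Tnfaip3, the A20 deubiquitinase that ends TNF signalling, 0.25 ± 0.077, with adjusted p-values of 0.573, 0.575 and 0.690 in limma. Tnfaip3 read 84.0, 78.4 and 69.5 in wild type and 93.1, 95.1 and 87.3 in Scnn1b-Tg, without overlap.

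Genes of lymphoid tissue and the non-canonical pathway had 7 of 10 measured members above 0, beside 53.2% of all genes. Their median was 0.081 (0.026 without wild type replicate 2). An unadjusted p under 0.05 was found for 1 gene, beside 6.01% of all genes. That gene (there were 2 without wild type replicate 3 or without Scnn1b-Tg replicate 3, and 0 without Scnn1b-Tg replicate 2) was Icosl, the ligand of the T cell receptor ICOS, at 0.21 ± 0.068 (SE; limma adjusted p = 0.732). Madcam1, a lymphocyte homing adhesion molecule, gave 0.13 ± 0.065. Cxcl13, the chemokine that gathers B cells, read 56.1, 45.9 and 39.6 in wild type and 52.4, 58.9 and 136 in Scnn1b-Tg, so that its log2 fold change of 0.68 ± 0.35 came with a wide spread and overlapping groups, and was 0.24 without both arrays that stood apart. Neutrophils, which express several of these target genes, had 4 of 6 markers above 0 (1 without Scnn1b-Tg replicate 3) and summed to 297 to 422 in wild type and 491 to 763 in Scnn1b-Tg, led by Retnlg (1.38 ± 0.35) and with Mmp8 at -0.12 ± 0.051. Without Retnlg the other 5 markers summed to 203 to 233 and 202 to 246, ranges that overlap, and had log2 fold changes from -0.12 to 0.069. Epithelial markers had 4 of 7 above 0 (1 after either scaling and 0 without Scnn1b-Tg replicate 3) and overlapping sums (16244 to 17247 and 15166 to 16768), with Scgb1a1 at -0.31 ± 0.069 and Epcam at -0.034 ± 0.043. Their part in the values of these lists was not tested.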

How the data were processed

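Per the labels' protocols, lung RNA was extracted with Trizol and labelled with biotin for Affymetrix whole-transcript arrays. The authors deposited 1 intensity for each probe set and array; the submitters' processing notes name RMA, with no version, and the linear scale was read from the values. Of 28815 probe sets 21780 had exactly 1 platform symbol, and the brightest of each gene gave 19935 genes. Each member had 1 probe set.

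For all genes a model with genotype alone was fitted to log2 intensities (limma 3.58.1, R 4.3.3, default eBayes; residual degrees of freedom 4, moderated 6.99), with two-sided tests and Benjamini-Hochberg adjustment over all genes. Errors are the standard error and 95% interval of this fit, or the SD of 3 arrays. The fit was tested on simulated data. Members and lists were chosen with earlier results of these data known. Values on every array are given for Tnf and its receptors, for members at an unadjusted p under 0.05 or with groups that do not overlap, for the 3 ligands and receptors of smallest p, and for some more picked after seeing their values; pathway lists are named by their 3 smallest p, and cell type lists by their 2. Alternatives were quantile normalization, median centring, a filter on dim genes, the mean over probe sets, all probe sets, a variance trend, array weights, a replicate block, 16 subtracted before log2, and single arrays left out. Leaving out both arrays that stood apart was added after seeing the data.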

Additional observations from a re-analysis of the deposited data

How the results depend on the processing

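In limma 0 of 39 members were called under any of the 16 alternatives. Their smallest limma adjusted p for a member was 0.140 (Tnfrsf1b without the 6645 dimmest genes, which kept 24 members). In each alternative 2 or 3 members had an unadjusted p under 0.05, and the matching share of all genes is not given. Over all genes 1 was called, against 39 without the dimmest genes, 36 with a variance trend, 23 with 16 subtracted, 3 with the replicate block, and 0 to 6 with arrays left out. The replicate block left 2 members at an unadjusted p under 0.05; deviations of same-numbered arrays correlated across genes at 0.0257 to 0.0395, so the numbers were not taken as pairs. The ligand median of 0.032 was 0.0062 after median centring, 0.072 without the dimmest genes, 0.090 with 16 subtracted and 0.0025 to 0.051 with arrays left out. The receptor median of 0.032 was 0.014 after quantile normalization, 0.0067 after median centring and 0.010 to 0.059 with arrays left out. Log2 fold changes of 16 members kept their sign under all alternatives, and 23, none beyond 0.081 in size, changed it under at least 1; the cause was not tested. The sign changed after median centring for Cd40lg (-0.0066), Tnfrsf10b (-0.025), Tnfrsf11a (-0.0084), Tnfrsf11b (-0.0019), Tnfrsf17 (-0.0013), Tnfrsf21 (-0.0072), Tnfrsf23 (-0.00068) and Tnfrsf26 (-0.010). After quantile normalization it changed for Tnfrsf10b (-0.038), Tnfrsf11a (-0.0023), Tnfrsf11b (-0.0031), Tnfrsf13b (-0.0020) and Tnfrsf21 (-0.0011), with array weights for Cd70 (0.0098), Tnfrsf10b (-0.043), Tnfrsf11a (-0.0085) and Tnfrsf26 (-0.0022) and with 16 subtracted for Tnfrsf10b (-0.0042). With 1 array left out, or both that stood apart, values ran over 0 for these members: Cd70 -0.028 to 0.043, Fas -0.12 to 0.043, Fasl -0.017 to 0.0073, Ltbr -0.0017 to 0.13, Tnf -0.029 to 0.11, Tnfrsf10b -0.11 to 0.060, Tnfrsf11a -0.068 to 0.099, Tnfrsf11b -0.025 to 0.10, Tnfrsf13b -0.012 to 0.062, Tnfrsf17 -0.050 to 0.095, Tnfrsf18 -0.013 to 0.17, Tnfrsf19 -0.16 to 0.051, Tnfrsf1a -0.026 to 0.073, Tnfrsf21 -0.0080 to 0.038, Tnfrsf23 -0.0082 to 0.060, Tnfrsf25 -0.025 to 0.088, Tnfrsf26 -0.020 to 0.078, Tnfrsf8 -0.059 to 0.0069, Tnfsf10 -0.12 to 0.0093, Tnfsf11 -0.027 to 0.13, Tnfsf4 -0.12 to 0.024 and Tnfsf9 -0.013 to 0.072.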

Other observations

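A single probe set carries the symbols Tnfsfm13, Tnfsf13 (APRIL, a survival factor of plasma cells) and Tnfsf12 (TWEAK, the ligand of Tnfrsf12a), so it names no gene and was outside the test. Its intensities were 92.6, 112 and 100.2 in wild type and 102, 92.6 and 92.9 in Scnn1b-Tg. The groups overlapped, and the mean log2 difference was -0.082.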
